A study of Mus musculus with 24 samples.

Results

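The circadian clock genes are the transcription factors, period and cryptochrome repressors, nuclear receptors and output factor that make up the core of the daily oscillator. The set listed for this account holds 10 genes, Arntl, Clock, Per1, Per2, Per3, Cry1, Cry2, Nr1d1, Nr1d2 and Dbp. Each gene was represented by a probe set that carries its symbol alone in the platform annotation, and no gene had more than 1 such probe set. That left 9 of the 10 genes, all of which were among the 15234 genes tested of 22180 genes with such a probe set. The probe set of Per2 carries 2 symbols, so Per2 has no value here. A further Cry2 probe set carries several symbols and was not used.

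The levels come from 24 single-colour arrays of total RNA from mice, in a series about BRCA1, a tumour suppressor of homologous recombination repair, in pregnancy. There were 8 groups of 3 arrays, mutant and wild type at each of 4 stage codes. V is virgin in the titles, and dp12 and dp18 are taken to mean pregnancy and Lac10 lactation. In the design text the stage numbers are months, so the time a code stands for is not settled. All groups shared a mixed strain that is 80% FVB, 10% 129SVEV and 10% Black Swiss. The labels state neither the tissue, the mutated allele, the animals' age nor the time of day of collection, and their treatment text describes a tagged PAB-1 pull-down that differs from the total RNA named elsewhere. Most titles carry a body weight, and each mutant title has its own identifier. The dp18 and Lac10 titles with a weight also carry a colour word, white, brown or golden. It differed within wild-type dp18 and both Lac10 groups, and its part was not tested. The identifiers read as separate animals, though no label says so outright. A p-value here speaks of the spread among arrays, part of which may be technical. Levels are log2 intensities, and a difference is in log2 units, with the mutant value less the wild-type one or the later stage less the earlier, and SE is the standard error from the limma fit. A gene is called where its p, adjusted by Benjamini-Hochberg over all 15234 genes, is under 0.05.

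In the textbook account of the clock, ARNTL (also called BMAL1) and CLOCK bind as a pair to E-box elements and switch on the Per, Cry, Nr1d and Dbp genes. PER and CRY proteins then return to the nucleus and inhibit that pair, while NR1D1 and NR1D2 repress Arntl through ROR elements, and DBP acts on D-box elements of genes such as the Per family. Because of this loop the transcripts rise and fall over the day, those of Arntl out of phase with those of Nr1d1 and Dbp, and the mammary gland is among the tissues with a clock of its own.

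Copies of these elements were looked for as letters in the promoters of the clock genes, and 4 promoters are shown because they hold one. RefSeq promoters, each running from 250 bases before the start site to 50 after it on GRCm38.p6, were matched for 9 of the 10 genes, 13 promoters in all. They were searched on both strands for the E-box CACGTG, the D-box TTATGTAA and the core of the ROR element ANTAGGTCA, where N is any base, and no matches overlapped. Capitals mark the matches, and positions give a match's first base counted from the start site as 0. The Cry1 promoter (chr10:85185005-85185304, minus strand) holds an E-box at -60 and the first Per1 promoter (chr11:69098699-69098998, plus strand) an E-box at -166. The Per3 promoter (chr4:151044616-151044915, minus strand) holds 2 D-boxes, at -205 and -158. The second Arntl promoter (chr7:113207261-113207560, plus strand) holds a ROR element core at 28.
Cry1: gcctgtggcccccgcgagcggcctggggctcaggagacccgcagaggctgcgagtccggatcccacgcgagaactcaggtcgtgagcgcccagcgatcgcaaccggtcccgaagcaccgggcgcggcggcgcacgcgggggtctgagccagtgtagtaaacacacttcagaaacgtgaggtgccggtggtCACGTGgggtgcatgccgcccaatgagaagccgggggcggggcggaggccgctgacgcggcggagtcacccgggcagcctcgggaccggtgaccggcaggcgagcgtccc
Per1: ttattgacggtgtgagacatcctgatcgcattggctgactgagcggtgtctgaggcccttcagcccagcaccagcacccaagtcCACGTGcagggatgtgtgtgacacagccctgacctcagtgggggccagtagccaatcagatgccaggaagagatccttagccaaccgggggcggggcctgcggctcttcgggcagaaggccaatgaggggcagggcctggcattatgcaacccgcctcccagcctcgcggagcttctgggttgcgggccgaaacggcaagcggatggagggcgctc
Per3: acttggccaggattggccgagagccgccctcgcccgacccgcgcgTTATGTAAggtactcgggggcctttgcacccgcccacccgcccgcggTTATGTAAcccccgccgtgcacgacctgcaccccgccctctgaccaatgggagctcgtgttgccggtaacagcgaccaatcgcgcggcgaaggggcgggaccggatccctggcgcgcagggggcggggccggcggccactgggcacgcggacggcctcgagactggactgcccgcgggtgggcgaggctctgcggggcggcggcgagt
Arntl: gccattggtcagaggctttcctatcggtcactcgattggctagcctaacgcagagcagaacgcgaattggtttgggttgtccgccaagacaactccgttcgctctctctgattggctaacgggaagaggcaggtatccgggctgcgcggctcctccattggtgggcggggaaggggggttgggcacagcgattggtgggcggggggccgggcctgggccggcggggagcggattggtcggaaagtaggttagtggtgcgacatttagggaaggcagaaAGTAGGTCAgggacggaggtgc
Of all 32851 promoters in the table, 7.15% hold the E-box, 0.938% the D-box and 0.661% the ROR element core. A match describes the letters only, and the promoters of Clock, Cry2, Nr1d1, Nr1d2 and Dbp hold none of these 3 words within the window.

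Some arrays stood apart, and this touches every result below. Taking the median of an array's correlations with all others over the genes tested, mutant Lac10 replicate 2 came out at 0.6995, mutant dp18 replicate 1 at 0.825 and wild-type dp18 replicate 1 at 0.787, the 3 lowest. The lowest of the 24 levels lay in one of these 3 arrays for 7 of the 9 clock genes, all but Per3 and Dbp. All arrays of mutant dp18, mutant Lac10 and wild-type dp18 correlated better with another group than with their own. So did wild-type Lac10 replicate 1, at 0.973 with mutant dp12 against 0.937 with its own group, and, by a small margin, wild-type dp12 replicate 2, at 0.982 with mutant dp12 against 0.980 with its own. Brca1 ranged from 4.33 to 6.79 in mutants and from 4.64 to 6.43 in wild type and was called between genotypes at none of the 4 stages (smallest adjusted p 0.816, limma). Where its probe set lies relative to the mutation is not known, so it checks nothing about the labels. The tissue is not named, and milk and secretion genes had a list mean of 10.6 to 12.1 in mutant Lac10 and 11.2 to 12.3 in wild-type Lac10, against 7.38 to 9.02 in mutant V and 7.67 to 8.63 in wild-type V arrays. In bulk RNA, fewer cells of a type and less RNA per cell cannot be told apart.

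Arntl, the E-box activator that gives the loop its rhythm, had its lowest group mean in mutant Lac10. Mutant arrays held Arntl at 8.09, 7.97 and 8.10 at V, 8.03, 7.83 and 7.64 at dp12, 7.34, 8.18 and 8.28 at dp18, and 6.82, 6.82 and 7.69 at Lac10. Wild-type arrays held it at 7.73, 8.63 and 8.12 at V, 7.44, 7.91 and 8.15 at dp12, 6.88, 8.16 and 8.42 at dp18, and 7.97, 8.01 and 8.07 at Lac10. Every mutant Lac10 array lay below every wild-type Lac10 array, while at the 3 other stages the genotypes overlapped. The mutant Lac10 mean was 7.11 ± 0.50 (SD, n = 3), and the other 7 group means lay between 7.82 and 8.16, with an SD within a group of up to 0.82.

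Clock, the partner of ARNTL and a histone acetyltransferase, varied least of the 9 genes, with an SD over 24 arrays at the 22.4th percentile of all genes tested. It was at 9.62, 9.48 and 9.37 at V, 9.27, 8.98 and 9.15 at dp12, 8.45, 9.52 and 9.18 at dp18, and 9.09, 8.79 and 9.50 at Lac10 in mutants. In wild type it was at 9.01, 9.06 and 9.06 at V, 9.28, 9.22 and 9.48 at dp12, 8.55, 9.42 and 9.46 at dp18, and 9.40, 9.54 and 9.23 at Lac10. The 3 wild-type V arrays differed little and lay below every mutant V array, the 1 stage at which the genotypes did not overlap. The highest group mean was 9.49 ± 0.12 in mutant V and the lowest 9.04 ± 0.03 in wild-type V (SD, n = 3 each), and the dp18 groups each held 1 low array.

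Per1, a repressor whose transcript also answers quickly to hormones and to cyclic AMP, had its highest group mean at dp12 in both genotypes. Its levels in mutants were 10.03, 10.29 and 10.15 at V, 10.17, 10.22 and 10.39 at dp12, 9.49, 9.28 and 10.04 at dp18, and 10.13, 8.05 and 9.70 at Lac10. Its levels in wild type were 9.83, 10.10 and 9.74 at V, 10.43, 10.55 and 10.47 at dp12, 9.73, 10.05 and 9.91 at dp18, and 10.17, 10.19 and 10.01 at Lac10. At dp12 every mutant array lay below every wild-type array, with a mean difference of -0.22. Mutant Lac10 spread from 8.05 to 10.13, with replicate 2 far below the rest, whereas the wild-type Lac10 arrays lay within 10.01 to 10.19.

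Per3, the period gene that the oscillator can run without, ranged from 5.23 to 7.07 and was above the array median in 22 of 24 arrays. Mutant Per3 levels were 6.74, 6.13 and 5.72 at V, 5.88, 6.26 and 6.34 at dp12, 5.64, 6.14 and 5.96 at dp18, and 6.19, 5.63 and 7.07 at Lac10. Wild-type Per3 levels were 5.96, 5.46 and 5.23 at V, 6.31, 6.57 and 6.21 at dp12, 5.39, 6.12 and 6.07 at dp18, and 6.02, 6.04 and 5.61 at Lac10. The genotypes overlapped at all 4 stages. The highest mean was that of wild-type dp12, 6.36 ± 0.19, and the lowest that of wild-type V, 5.55 ± 0.37 (SD, n = 3 each), and the arrays of these groups did not overlap.

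Cry1, the stronger of the cryptochrome repressors, was the single clock gene called in any comparison. In mutants it was at 7.24, 7.74 and 7.43 at V, 7.44, 7.43 and 7.24 at dp12, 6.32, 6.48 and 7.03 at dp18, and 6.65, 6.01 and 6.16 at Lac10. In wild type it was at 6.56, 7.23 and 6.78 at V, 7.54, 7.14 and 7.25 at dp12, 6.25, 7.29 and 7.07 at dp18, and 7.14, 6.39 and 6.75 at Lac10. Every mutant V array lay above every mutant Lac10 array, the mutant dp18 arrays lay below V and overlapped those of Lac10, and the wild-type V and Lac10 arrays overlapped. Mutant V held the highest mean of the 8 groups, 7.47 ± 0.25, and mutant Lac10 the lowest, 6.28 ± 0.34 (SD, n = 3 each).

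Cry2, the other cryptochrome, was the most variable of the 9 genes by this measure, with an SD at the 84.7th percentile. Mutant arrays gave Cry2 at 7.74, 7.91 and 7.51 at V, 6.80, 7.05 and 7.34 at dp12, 6.11, 6.73 and 6.88 at dp18, and 7.21, 5.63 and 7.36 at Lac10. Wild-type arrays gave 6.23, 8.09 and 7.30 at V, 7.44, 7.65 and 7.18 at dp12, 5.56, 6.84 and 6.80 at dp18, and 6.80, 7.53 and 6.97 at Lac10. The lowest levels were 5.63 in mutant Lac10 replicate 2 and 5.56 in wild-type dp18 replicate 1. The genotypes overlapped at every stage, and the highest group mean was 7.72 ± 0.20 in mutant V and the lowest 6.40 ± 0.73 in wild-type dp18 (SD, n = 3 each).

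Nr1d1, which encodes the haem receptor REV-ERB alpha that represses Arntl, lay on opposite sides of wild type at V and at dp12. In mutants it was at 9.33, 9.41 and 9.17 at V, 8.66, 8.63 and 8.58 at dp12, 7.86, 8.87 and 8.81 at dp18, and 9.24, 8.89 and 10.16 at Lac10. In wild type it was at 8.56, 8.66 and 8.89 at V, 9.15, 9.39 and 9.24 at dp12, 8.69, 9.21 and 8.94 at dp18, and 8.87, 9.83 and 8.93 at Lac10. All mutant V arrays lay above all wild-type V arrays, and all mutant dp12 arrays below all wild-type dp12 arrays. Its highest level, 10.16, was in mutant Lac10 replicate 3 and its lowest, 7.86, in mutant dp18 replicate 1. The mutant dp12 arrays were the tightest group, with a mean of 8.62 ± 0.04 against 9.26 ± 0.12 in wild-type dp12 (SD, n = 3 each).

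Nr1d2, which encodes the related receptor REV-ERB beta, showed the same order of the genotypes at V and dp12. Mutant Nr1d2 levels were 9.25, 8.68 and 9.04 at V, 8.15, 8.40 and 8.40 at dp12, 6.78, 8.13 and 8.10 at dp18, and 8.54, 7.58 and 9.10 at Lac10. Wild-type levels of the gene were 8.26, 8.01 and 7.85 at V, 8.85, 8.93 and 8.94 at dp12, 7.25, 8.05 and 8.33 at dp18, and 8.11, 8.79 and 7.83 at Lac10. Mutant V lay wholly above wild-type V, with a mean of 8.99 ± 0.29 against 8.04 ± 0.21, and mutant dp12 wholly below wild-type dp12, with 8.32 ± 0.14 against 8.91 ± 0.05 (SD, n = 3 each). At dp18 and Lac10 the genotypes overlapped, and both dp18 groups held 1 array below the others.

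Dbp, a PAR bZIP activator driven directly by the ARNTL pair and used as a readout of the clock's output, was highest in a single array. Its mutant levels were 7.24, 7.06 and 6.76 at V, 6.02, 6.45 and 6.27 at dp12, 6.23, 7.06 and 6.44 at dp18, and 6.84, 7.12 and 9.04 at Lac10. Its wild-type levels were 6.58, 6.94 and 6.13 at V, 6.72, 6.92 and 6.49 at dp12, 6.64, 6.49 and 6.33 at dp18, and 6.12, 6.99 and 6.51 at Lac10. Mutant Lac10 replicate 3, at 9.04, stood apart, while the other 23 arrays lay between 6.02 and 7.24. At dp12 every mutant array lay below every wild-type array, and the group mean of 6.25 ± 0.22 in mutant dp12 was the lowest of the 8, against 6.71 ± 0.21 in wild-type dp12 (SD, n = 3 each).

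**Figure D1:**
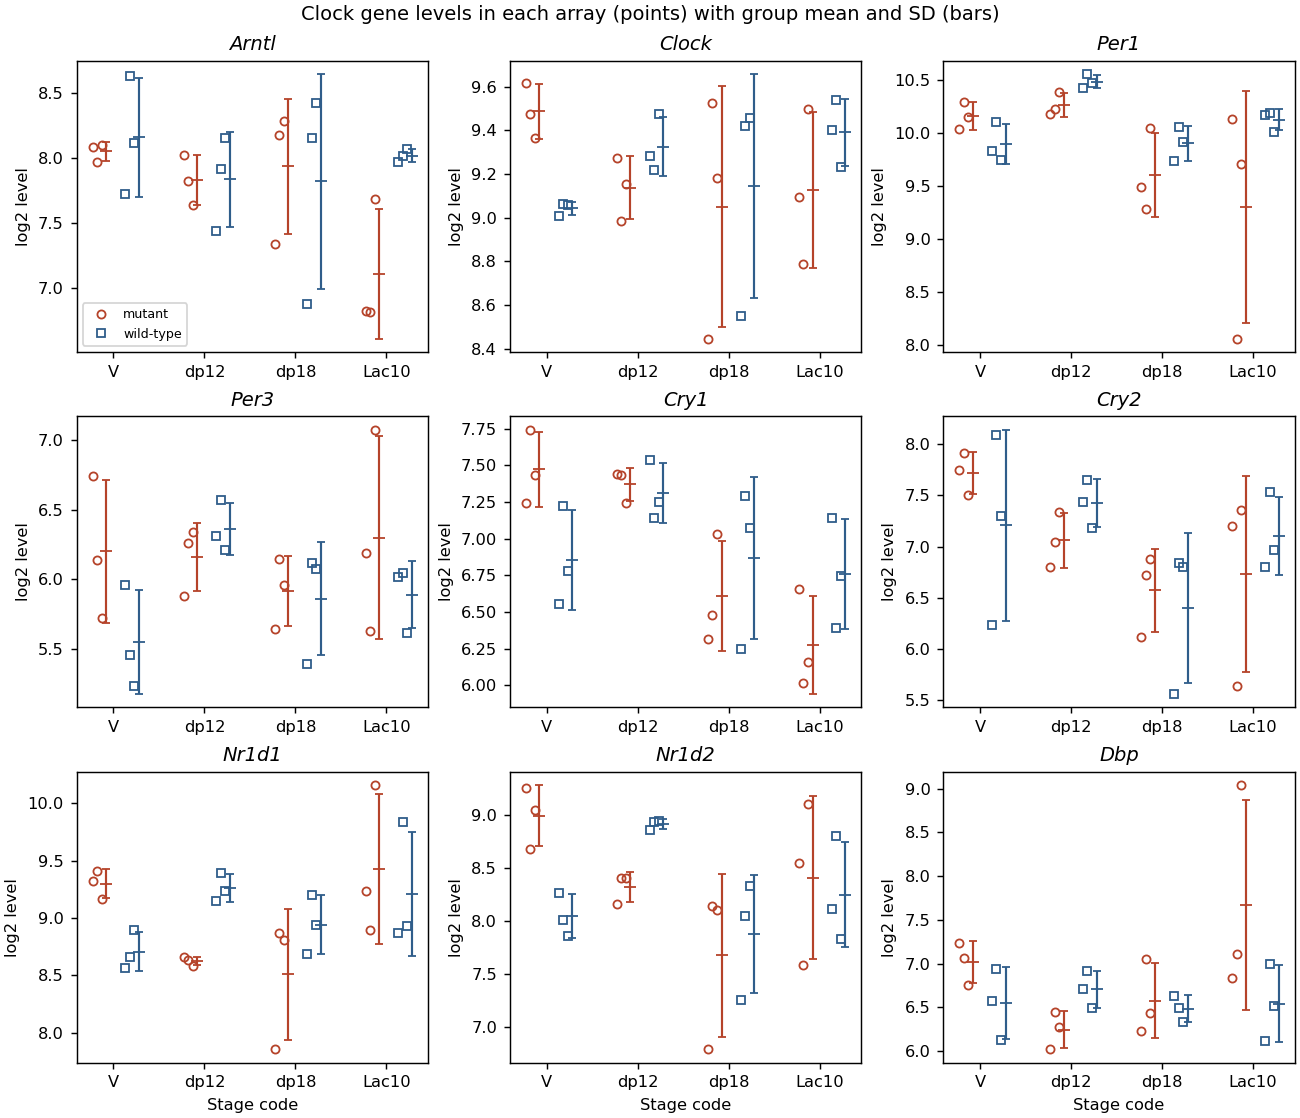
Log2 level of the 9 clock genes in each of the 24 arrays by stage code, mutant arrays as circles and wild-type arrays as squares, with the group mean and SD (n = 3) as a bar beside the points. Nr1d1 and Nr1d2 lie higher in mutants at V and lower in mutants at dp12, and Dbp reaches 9.04 in 1 mutant Lac10 array.

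Between genotypes, no clock gene was called at any stage, on average over stages, where 0% of all genes were, or as unequal over stages, where 0.00656% were (limma). An unadjusted p under 0.05 was reached by 0 of 9 on average (3.01% of all genes) and by 1 of 9, Nr1d1, as unequal (12.4%). At V, where 0.0263% of all genes were called, 8 of the 9 clock genes were higher in mutants and their median difference was 0.51, beside 0.20 over all genes. The SD of log2 levels over all probe sets was 1.91 to 1.97 in mutant V arrays and 1.77 to 1.88 in wild-type V arrays. The part of this narrower range in the differences at V was not tested. Clock, Cry1, Nr1d1 and Nr1d2 were higher without overlap, 4 of 9, where 25.5% of all genes were. The differences were 0.95 for Nr1d2 (95% confidence interval 0.17 to 1.73, adjusted p = 0.266 in limma) and 0.62 for Cry1 (adjusted p = 0.297), the 2 of 9 genes with an unadjusted p under 0.05, as 15.8% of all genes had. Centring each array on its median over 22 of 27 housekeeping genes moved the median of all genes at V by -0.24 and left 8 of 9 higher in mutants. Gene by gene, these 22 genes differed between genotypes by a median of 0.06 at V, -0.04 at dp18 and -0.24 at Lac10. The size of each shift, and any sign that turns with it, therefore depends on the use of an array median. Nr1d2 was called at V (adjusted p = 0.00830) without the 3 least correlated arrays, none of which belongs to V, and so was Clock (adjusted p = 0.0431), 2 of 9 where 20.1% of all genes were called in that setting.

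At dp12 the order turned, and 8 of 9 clock genes were lower in mutants, all but Cry1, with a median difference of -0.22 beside -0.0035 over all genes. Per1, Nr1d1, Nr1d2 and Dbp were lower without overlap, 4 of 9, where 10.2% of all genes were. No gene of the array was called at dp12 (0%), and 0 clock genes had an unadjusted p under 0.05, against 1.21% of all genes (limma). The nearest were Nr1d1, at -0.64 (95% confidence interval -1.27 to 8e-04), Nr1d2, at -0.59, and Dbp, at -0.46. The housekeeping centring left the same 8 of 9 lower. At dp18 (background 0%) the genotypes overlapped for all 9 genes, while 1.27% of all genes were higher and 1.07% lower without overlap, and 0 of 9 had an unadjusted p under 0.05, against 0.656% of all genes (limma). The differences lay between -0.43 for Nr1d1 and 0.17 for Cry2, and the 4 genes that were higher in mutants were lower with the housekeeping centring, which moved all genes by -0.17.

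At Lac10, Dbp was higher and Arntl and Per1 lower in mutants, 3 of 9 with an unadjusted p under 0.05, as 17.6% of all genes had, and 0 called, where 0.236% of all genes were (limma). Arntl had a mean difference of -0.91 (95% confidence interval -1.63 to -0.19, adjusted p = 0.198) and was the 1 clock gene of 9 that was lower without overlap, as 12.4% of all genes were. Dbp was higher by 1.12 (0.30 to 1.95, adjusted p = 0.164), and by 0.44 without mutant Lac10 replicate 3. Per1 differed by -0.83 (-1.53 to -0.13, adjusted p = 0.22) and by -0.21 without mutant Lac10 replicate 2. Leaving out 1 array also made calls: Arntl at -1.20 (adjusted p = 0.0471) without mutant Lac10 replicate 3, and Per1 at -1.24 (adjusted p = 0.0499) without replicate 1. The shares of all genes called in those settings are not given here, so these calls are not set apart from the rest of the array. The housekeeping centring, which moved all genes at Lac10 by 0.49, gave 7 of 9 clock genes higher in mutants in place of 4, with Arntl at -0.42, Per1 at -0.34 and Dbp at 1.61.

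The mutant Lac10 arrays were unlike each other. Replicate 1 correlated at 0.922 with wild-type V against 0.816 with its own group, and replicate 3 at 0.932 with wild-type Lac10. Their luminal epithelium list mean was 6.69 to 9.92, against 8.62 to 9.89 in wild-type Lac10, and all 10 genes of the list had a lower mean in mutant Lac10. Their white adipocyte list mean, over 9 of 10 genes, was 6.57, 7.79 and 9.09 in the 3 arrays, against 6.92 to 7.30 in wild-type Lac10. The highest Dbp and Nr1d1 levels and the highest adipocyte mean of the study thus lay in the same array, mutant Lac10 replicate 3, and the part of cell makeup in the Lac10 differences was not tested.

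**Figure D2:**
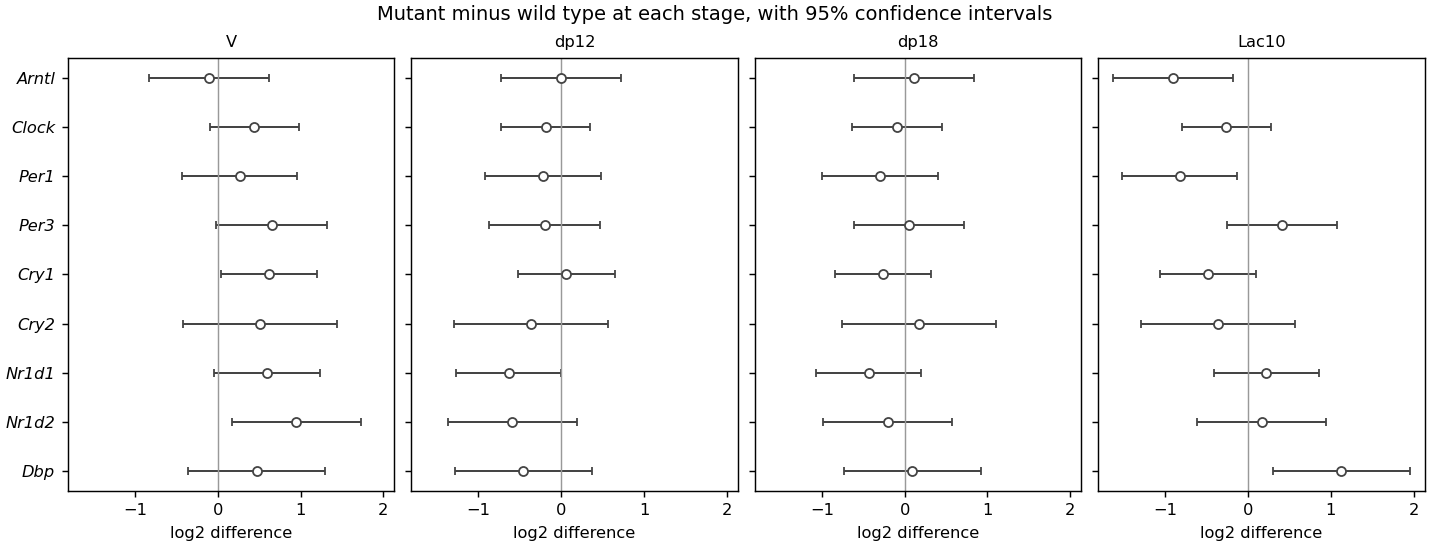
Difference between mutant and wild type in log2 level of the 9 clock genes at each stage code, with 95% confidence intervals from the limma fit (n = 3 arrays per group). The intervals exclude 0 for Cry1 and Nr1d2 at V and for Arntl, Per1 and Dbp at Lac10, none of which was called after adjustment.

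From V to dp12 the REV-ERB genes and Clock separated in opposite directions in mutants and wild type. In mutants every dp12 array lay below every V array for Clock, Cry2, Nr1d1, Nr1d2 and Dbp, 5 of 9, as for 15.3% of all genes, and 8 of 9 had a lower mean, with a median difference of -0.35 beside 0.0087 over all genes. In wild type every dp12 array lay above every V array for Clock, Per1, Per3, Nr1d1 and Nr1d2, 5 of 9, as for 41.7% of all genes, with a median of 0.45 beside 0.28. Both held for Clock, Nr1d1 and Nr1d2, 3 of 9, and for 2.68% of all genes. No clock gene was called in either step, where 4.44% of all genes were in mutants and 6.45% in wild type, and 1 and 2 of 9 had an unadjusted p under 0.05, against 15.3% and 32.4% of all genes (limma).

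Nr1d2 differed between dp12 and V by -0.67 in mutants and 0.87 in wild type, and the difference of these steps was -1.54 (95% confidence interval -2.64 to -0.44, adjusted p = 0.695 in limma). For Nr1d1 the steps were -0.68 and 0.55, with a difference of -1.23 (-2.13 to -0.33, adjusted p = 0.695). For Clock they were -0.35 and 0.28, with a difference of -0.63 (-1.40 to 0.13). These differences of steps were not called, as 0.00656% of all genes were, and 2 of the 9 genes, against 5.95% of all genes, had an unadjusted p under 0.05. Fitting the arrays of these 4 groups alone called all 3, Nr1d2 (adjusted p = 0.00446), Nr1d1 (adjusted p = 0.00455) and Clock (adjusted p = 0.0492), 3 of 9 where 10.3% of all genes were then called, and leaving out the 3 least correlated arrays called Nr1d2 (adjusted p = 0.0281), 1 of 9 where 3.14% were. The housekeeping centring moved all genes by -0.35 in mutants and -0.55 in wild type, while the 22 housekeeping genes taken singly differed by a median of 0.08 and 0.21. With it the wild-type step was -0.26 for Clock, 0.0079 for Nr1d1 and 0.32 for Nr1d2. The signs thus stayed opposite for Nr1d2, Nr1d1 was near 0 in wild type, and Clock was lower in both. The mutant step was called for all 3, 3 of 9 where 8.99% of all genes were called with that centring.

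Among the other members, Per3 was higher at dp12 than at V in wild type, by 0.81 (95% confidence interval 0.14 to 1.48, adjusted p = 0.101 in limma), and differed by -0.04 in mutants. Dbp was -0.77 in mutants and 0.16 in wild type over the same step, Cry2 -0.66 and 0.21, Cry1 -0.10 and 0.45, and Per1 0.10 and 0.59. Arntl had a lower mean at dp12 in both, with differences of -0.22 in mutants and -0.32 in wild type. With the housekeeping centring Cry1 (-0.09), Cry2 (-0.33) and Dbp (-0.39) were lower at dp12 in wild type too. The list mean of luminal epithelium markers was 10.0 to 10.1 in mutant dp12 against 9.70 to 10.1 in mutant V, and 10.0 to 10.2 in wild-type dp12 against 9.03 to 9.61 in wild-type V, and their part in the clock gene differences was not tested.

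From dp12 to dp18 no gene of the array was called in either genotype (0%), nor for the difference of the steps (0%), where 0 of 9 had an unadjusted p under 0.05, against 0.414% of all genes (limma). All 9 clock genes had a lower mean in wild-type dp18, and Per1, Per3, Cry2 and Nr1d2 lay lower without overlap, 4 of 9, as 18.9% of all genes did. The largest differences were -1.03 for Nr1d2 (adjusted p = 0.484 in limma) and -1.02 for Cry2, the 2 of 9 with an unadjusted p under 0.05, as 9.69% of all genes had. In mutants Per1, Cry1 and Nr1d2 lay lower without overlap, 3 of 9, against 20.6% of all genes, and Cry1, at -0.76 (adjusted p = 0.315), was the 1 of 9 with an unadjusted p under 0.05, as 13.7% of all genes had. The housekeeping centring moved all genes by 0.41 in wild type and 0.27 in mutants, and 5 of 9 clock genes were then lower in wild type and 4 of 9 in mutants.

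From dp18 to Lac10 again no gene was called in either genotype (0%) or for the difference of the steps (0%). In mutants Nr1d1 was higher without overlap, by 0.92 (adjusted p = 0.987 in limma), a separation that 1.02% of all genes showed. Dbp differed by 1.09 and Arntl by -0.83, and these 3 of 9 genes had an unadjusted p under 0.05, against 2.95% of all genes. Without mutant Lac10 replicate 3 the values were 0.55 for Nr1d1 and 0.40 for Dbp, with Arntl at -1.11. In wild type the steps ran from -0.11 for Cry1 to 0.70 for Cry2 and all groups overlapped, while 9.83% of all genes lay higher and 2.67% lower without overlap. An unadjusted p under 0.05 was reached by 0 of 9 there, against 8% of all genes (limma). For the difference of the steps 1 of 9 reached it, as 6.26% of all genes did: Arntl, at -1.02.

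Cry1 fell in mutants by Lac10. It was at 6.65, 6.01 and 6.16 in mutant Lac10 arrays against 7.24, 7.74 and 7.43 in mutant V arrays, with no overlap, a difference of -1.20 (SE 0.28, 95% confidence interval -1.78 to -0.62, adjusted p = 0.0288 in limma), which is 0.437 of the V level. It was the 1 clock gene of 9 called, where 2.88% of all genes were, and 2.59% were as lower. Cry1 was also called for any change over the 4 mutant stages (adjusted p = 0.0231), 1 of 9 where 6.08% of all genes were, and 5 of 9 had an unadjusted p under 0.05 there, as 27.1% of all genes did. In wild type Cry1 differed between Lac10 and V by -0.09 (-0.67 to 0.49). The mutant and wild-type values were not set against each other in a single contrast, and the test that the 4 genotype differences are equal gave an adjusted p of 0.416 for Cry1.

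The Cry1 call was near the threshold. It was kept in 27 of 34 alternatives, with values from -1.38 to -0.85, and lost without any 1 of the mutant V arrays (adjusted p = 0.0538, 0.153 and 0.0731), without mutant Lac10 replicate 2 (-1.06, adjusted p = 0.175), with the housekeeping centring (-0.85, adjusted p = 0.0782), with the array-median centring (adjusted p = 0.0577) and with the 2 groups fitted alone (adjusted p = 0.237). It was kept without the 3 least correlated arrays together (-1.06, adjusted p = 0.0355). Many of the 34 alternatives left out an array of neither group, where the difference itself could not change, so the 27 kept say little about these arrays. The call over the 4 mutant stages was likewise kept in 27 of 34, with adjusted p values from 0.00800 to 0.0770. It was lost with the housekeeping centring, under which Clock, Nr1d1, Nr1d2 and Dbp were called instead, 4 of 9 where 9.96% of all genes were. The luminal marker list had a mean of 6.69 to 9.92 in mutant Lac10 against 9.70 to 10.1 in mutant V, and its part in the Cry1 difference was not tested.

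Beside Cry1, Arntl and Cry2 were lower in mutant Lac10 than in mutant V without overlap, 3 of 9 in all against 18.3% of all genes. The differences were -0.94 for Arntl (adjusted p = 0.116 in limma), -0.99 for Cry2 (adjusted p = 0.185) and -0.86 for Per1 (adjusted p = 0.134), and these with Cry1 were the 4 of 9 with an unadjusted p under 0.05, as 24.5% of all genes had. Without mutant Lac10 replicate 2 Cry2 was at -0.44 and Per1 at -0.24. In wild type no clock gene was called between Lac10 and V, where 7.24% of all genes were, nor over the 4 stages, where 4.74% were, and 0 of 9 had an unadjusted p under 0.05 in either, against 24.5% and 23.6% of all genes (limma). Clock alone was higher without overlap in wild-type Lac10, by 0.35, as 26.4% of all genes were, and its value was -0.04 with the housekeeping centring.

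**Figure D3:**
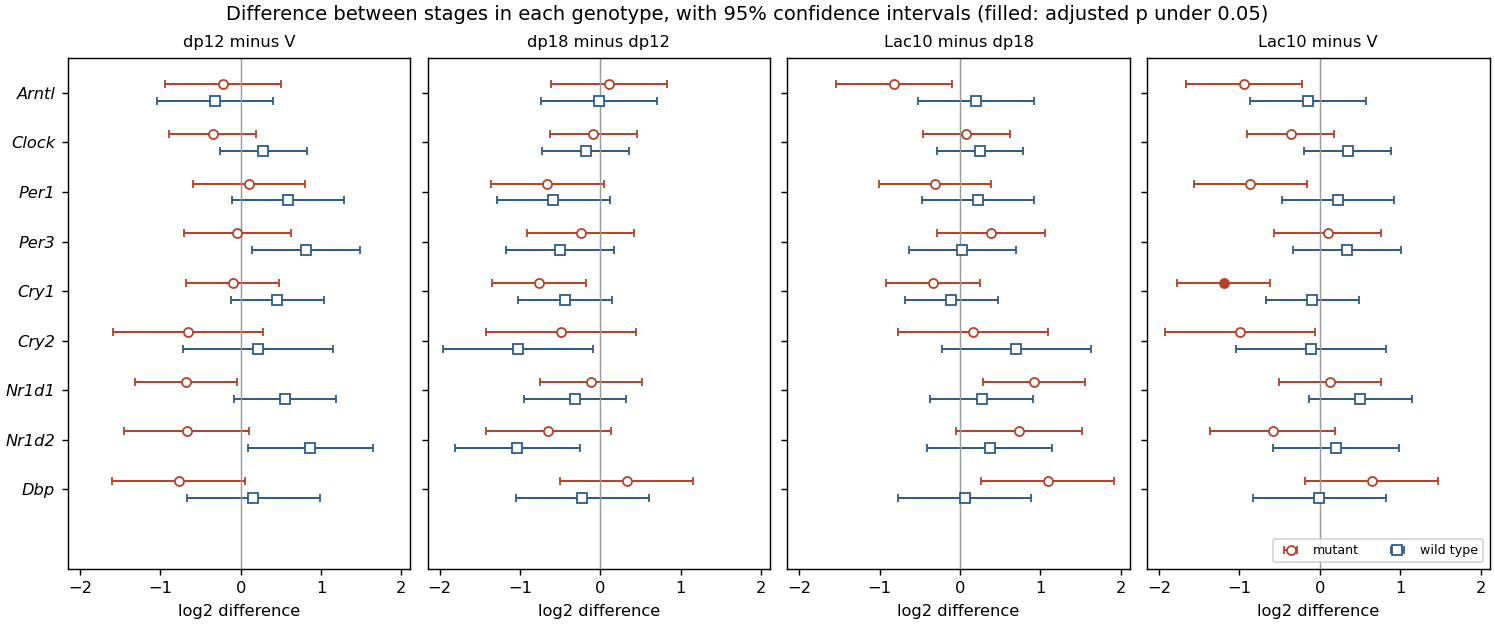
Difference between stages in log2 level of the 9 clock genes, mutant as circles and wild type as squares, with 95% confidence intervals from the limma fit (n = 3 arrays per group). The filled circle marks Cry1 in mutants between Lac10 and V, at -1.20. In the first panel Nr1d1 and Nr1d2 lie below 0 in mutants and above 0 in wild type. With the housekeeping centring the wild-type steps were 0.0079 for Nr1d1, 0.32 for Nr1d2 and -0.26 for Clock.

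Within groups, Arntl ran with Clock, Cry2, Nr1d1 and Nr1d2 across the arrays. After each group's mean was taken out, Pearson's r with Arntl over 24 arrays was 0.80 for Clock, 0.66 for Cry2, 0.60 for Nr1d1 and 0.64 for Nr1d2 (permutation within groups, 8 relations, adjusted p = 0.0429, 0.0429, 0.0429 and 0.0447). Spearman's rho was 0.72, 0.57, 0.60 and 0.52 with adjusted p values of 0.0566, 0.0886, 0.0673 and 0.0886, so none passed by rank. For Cry1, Per3, Dbp and Per1, r was 0.50, 0.43, 0.36 and 0.27 (adjusted p = 0.152, 0.152, 0.212 and 0.424), and rho was 0.42, 0.34, 0.28 and 0.39 (adjusted p = 0.200, 0.233, 0.266 and 0.205). Arntl and its repressor Nr1d1 thus had a positive r within groups, 0.92 among mutant and 0.32 among wild-type arrays.

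The relation rested on a few arrays. The 2 arrays farthest from the median of Arntl, after each group's mean was taken out, were mutant dp18 replicate 1 and wild-type dp18 replicate 1, and without them r was 0.66 for Clock, 0.57 for Cry2, 0.51 for Nr1d1 and 0.47 for Nr1d2. Without the 3 least correlated arrays r was 0.43, 0.43, 0.37 and 0.16 and none passed (smallest adjusted p 0.922). With the housekeeping centring Clock alone passed (r = 0.58, adjusted p = 0.0342). On the log2 levels with the group means kept, Arntl was permuted over all 24 arrays without regard to group. Differences between groups therefore count in these values. By that permutation Clock (r = 0.60), Cry2 (0.56) and Cry1 (0.51, adjusted p = 0.0302) passed. Nr1d1 (0.11, adjusted p = 0.683) and Nr1d2 (0.30, adjusted p = 0.250) did not. Among the other pairs, Clock and Nr1d2 had r = 0.84 within groups, Nr1d1 and Nr1d2 0.81, Per3 and Nr1d2 0.77, and Cry1 and Dbp -0.24, given as a description over 24 arrays, each pair measured on the same arrays.

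The genes most like Arntl over the raw levels of the 24 arrays were Oat, the ornithine aminotransferase gene (r = 0.870), Ttpal (0.845), E230001N04Rik (0.838), Tbpl1 (0.833) and Sav1, a scaffold of the Hippo pathway (0.831). Without the 3 least correlated arrays these values were 0.741, 0.695, 0.715, 0.663 and 0.691. Within the set of 9 clock genes the closest to Arntl was Clock, at 0.60, which ranked 1393rd among all genes. Those most like Dbp were Tef, a PAR bZIP factor as Dbp is (0.909), Cidec, a lipid droplet protein (0.906), Cyp2e1 (0.882), Retn, which encodes the adipokine resistin (0.874), and Mrap (0.871). Cidec and Retn are also among the white adipocyte markers listed for these arrays. Without mutant Lac10 replicate 3 the 5 values were 0.736, 0.673, 0.606, 0.593 and 0.593. Within the set of 9, Nr1d1 was the closest to Dbp, at 0.70 and 28th, and at 0.54 without that array, while Arntl had -0.12. Tef, which was closer, is on the list of other clock genes below.

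**Figure D4:**
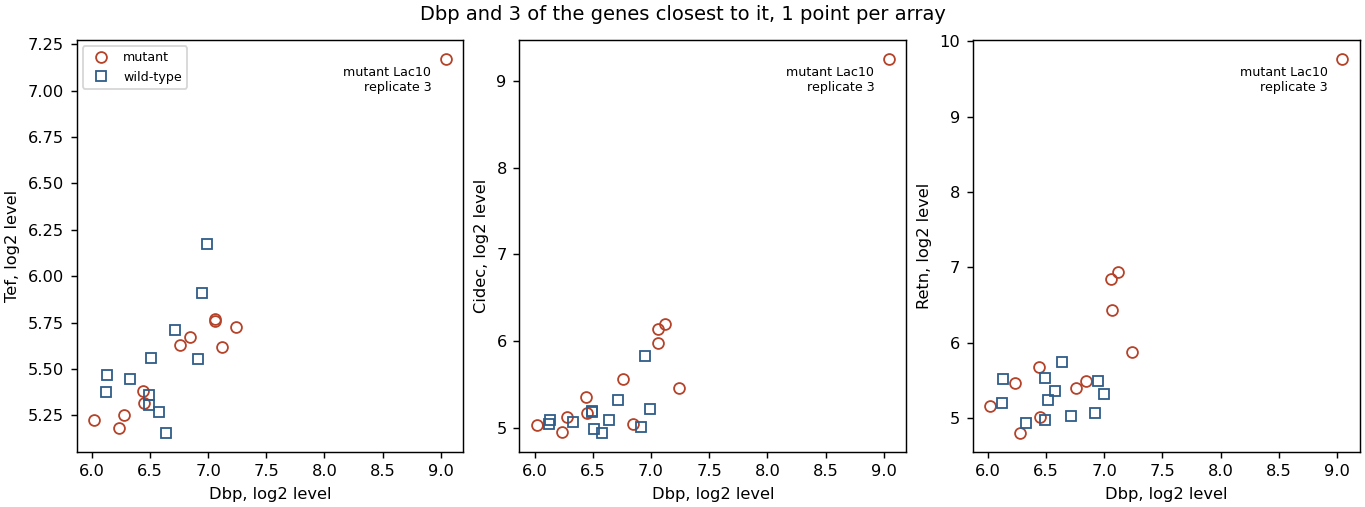
Log2 level of Tef, Cidec and Retn against that of Dbp in the 24 arrays, mutant arrays as circles and wild-type arrays as squares. Mutant Lac10 replicate 3, at 9.04 for Dbp, stands apart from the other 23 arrays in all 3 panels, and the r values of 0.909, 0.906 and 0.874 were 0.736, 0.673 and 0.593 without it.

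Other clock genes, those of the side loops and of the kinases and ubiquitin ligases that set PER and CRY stability, gave few calls. Of 22 listed, 19 had a value and 18 were tested. Hlf, a PAR bZIP factor related to Dbp, rose in wild type between V and dp12: it was at 6.94, 7.46 and 7.47 in wild-type dp12 against 5.42, 5.71 and 6.18 in wild-type V, a difference of 1.52 (SE 0.33, adjusted p = 0.015 in limma). The groups did not overlap, as for 41.7% of all genes, and the call was kept in 29 of 34 alternatives. It was lost, among others, with the housekeeping centring (0.97, adjusted p = 0.0805), without wild-type V replicate 2 (adjusted p = 0.0647) or 3 (adjusted p = 0.0799), and without wild-type dp12 replicate 2 (adjusted p = 0.0694). Hlf was at 7.71, 7.79 and 7.81 in wild-type Lac10, 2.00 above V (adjusted p = 0.00125), called in all 34 alternatives. It was the 1 of 18 called in each of these comparisons, as higher, where 5.91% and 6.01% of all genes were. In mutant Lac10 Hlf was at 5.60, 6.61 and 6.67, below every wild-type Lac10 array, as 12.4% of all genes were. The genotype difference was -1.48 (adjusted p = 0.0585).

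At Lac10 16 of the 18 other clock genes were lower in mutants, with a median of -0.38 beside -0.19 over all genes and 0 called. Rora, the activator that competes with the REV-ERBs at ROR elements, was at 6.95, 8.25 and 8.46 in mutant against 8.81, 9.15 and 9.19 in wild-type Lac10 (-1.16, adjusted p = 0.0764 in limma). These groups did not overlap, and 12.4% of all genes were lower without overlap there. Fbxw11, which encodes a beta-TrCP ubiquitin ligase subunit that targets PER proteins, fell between V and Lac10 in mutants: it was at 7.19, 8.16 and 8.30 in mutant Lac10 against 8.97, 9.07 and 9.36 in mutant V (-1.25, adjusted p = 0.0397), kept in 18 of 34 alternatives. It was the 1 of 18 called there, where 2.88% of all genes were, and was also called over the 4 mutant stages (adjusted p = 0.0479), where 6.08% were. With the housekeeping centring, which moved all genes by 0.49 at Lac10, 8 of the 18 were lower in mutants and the list median was 0.11.

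Of 7 clock output genes, 5 were tested, and all 5 were lower in mutant Lac10 than in mutant V, with a median of -0.93 beside -0.18 over all genes and 2 called, where 2.59% of all genes were called as lower. With the housekeeping centring all 5 were still lower, with a median of -0.58 beside 0.16 over all genes and 1 called. The share of all genes called with that centring is not given here. Lonrf3 was at 4.74, 4.87 and 5.37 in mutant Lac10 against 6.50, 6.57 and 6.94 in mutant V (-1.67, SE 0.39, adjusted p = 0.0288 in limma), kept in 26 of 34 alternatives. Wee1, the kinase that holds CDK1 inactive and an E-box target of the clock in mouse liver, was at 5.73, 7.85 and 9.26 against 9.80, 9.89 and 10.45 (-2.44, adjusted p = 0.0398), and at -1.49 and not called (adjusted p = 0.291) without mutant Lac10 replicate 2. That call was kept in 16 of 34 alternatives, with values from -3.26 to -1.26. Wee1 was called over the 4 mutant stages too (adjusted p = 0.0315). Nampt, which makes the NAD precursor in a clock-driven step, was at 6.83, 8.41 and 9.18 in mutant against 9.48, 9.93 and 10.34 in wild-type Lac10 (-1.78, adjusted p = 0.0827), without overlap. Lonrf3 was at 6.19, 6.25 and 6.27 in wild-type Lac10, above all mutant Lac10 arrays (-1.24, adjusted p = 0.12). Of all genes, 12.4% were lower in mutant than in wild-type Lac10 without overlap, as Nampt and Lonrf3 were.

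Glucocorticoids are a signal that sets peripheral clocks, and Per1 is among their targets, so 11 genes they induce were followed, all of them tested. All 11 were lower in mutant Lac10 than in mutant V, with a median of -0.69 beside -0.18 over all genes, and 1 was called, where 2.59% of all genes were called as lower. With the housekeeping centring, which moved all genes by 0.34, all 11 were still lower, the median was -0.35 and 0 were called. The gene called, Sgk1, a kinase that regulates sodium transport, was at 7.41, 7.94 and 8.15 in mutant Lac10 against 8.47, 8.82 and 8.90 in mutant V (-0.90, adjusted p = 0.0493 in limma), and was kept in 8 of 34 alternatives. Between genotypes at Lac10 all 11 were lower in mutants with a median of -0.60 beside -0.19 over all genes and 0 called, but with the housekeeping centring, which moved all genes by 0.49, 7 of 11 were lower and the median was -0.12. The smallest adjusted p was that of Tsc22d3, which encodes GILZ (-0.92, adjusted p = 0.106). On average over stages Mt1, a metallothionein gene, differed by -0.43 (adjusted p = 1.00). At V 9 of 11 were higher in mutants, with a median of 0.16 beside 0.20 over all genes and 0 called, and with the housekeeping centring 5 of 11 were higher and the median was -0.08.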

How the data were processed

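The authors' deposited log2 values were analysed as given. They were made with RMA, per the submitters' processing notes, with no version stated. RMA gives all arrays one distribution of probe intensities, which hides changes common to most genes. Groups came from titles and stage labels. Of 41345 probe sets, 23521 carry 1 symbol, 1814 several and 16010 none. Genes above the array median in fewer than 3 arrays, 6946 in all, were left out. Values ran from 1.98 to 13.5, and array medians from 5.31 to 5.62.

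limma (version 3.58.1, R 4.3.3) fitted 1 mean per group on 24 arrays, with 16 residual and 4.35 prior degrees of freedom, and was tested on simulated data. The median SE was 0.30 for a comparison of 2 groups, and the number of arrays limits the precision. Relations with Arntl used 100000 permutations within groups, or over all arrays where the group means were kept. Of 9 planned relations, 8 were run, since Per2 has no value. Members, lists, tests and alternatives were chosen with earlier results of these data known. All members are named, and from the other lists each gene called, up to 4 per list and comparison, and the 2 of smallest p between genotypes. For Arntl and Dbp, the 5 genes of highest r are named. Promoters are those of RefSeq.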

Additional observations from a re-analysis of the deposited data

Results flagged for a closer look

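In the step from V to dp12, every mutant dp12 array lay below every mutant V array, and every wild-type dp12 array above every wild-type V array, for Clock, Nr1d1 and Nr1d2, as for 2.68% of all genes. The mutant step minus the wild-type step was -0.63 for Clock, -1.23 for Nr1d1 and -1.54 for Nr1d2, and none was called over all genes (smallest adjusted p 0.695, limma). The same 4 groups, read as mutant against wild type at dp12 and at V, set Nr1d1 apart by -1.23 and Nr1d2 by -1.54, lower in mutants at dp12 and higher at V without overlap, as 3.18% of all genes were. With the housekeeping centring the values were -0.43 for Clock, -1.03 for Nr1d1 and -1.34 for Nr1d2. The wild-type step of Clock turned to -0.26 with it, and that of Nr1d1 was near 0, at 0.0079.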

How the results depend on the processing

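The 27 single-gene differences with an unadjusted p under 0.05 among the clock genes or called in the other lists kept their direction in the 34 alternatives, and 812 of 918 such values kept their side of the threshold. Leaving out an array from a group outside a difference could not change its value, only its p, so these counts are no measure of robustness by themselves. Weighting the arrays made the most calls of clock genes: 5 between genotypes at V, 1 at dp12, 1 at Lac10, 4 and 7 from V to dp12 in mutants and wild type, 3 from dp12 to dp18 and 1 from dp18 to Lac10 in wild type, 2 and 6 between Lac10 and V in mutants and wild type, 4 and 7 over all stages, 7 as unequal over stages and 7 for differences of steps. That setting also called 36.6%, 0.952% and 21.7% of all genes between genotypes at V, dp12 and Lac10, 26.9% and 63.9% from V to dp12 in mutants and wild type, 18.1% and 25.6% in the later wild-type steps, 10.6% and 54% between Lac10 and V, 36.9% and 80.8% over all stages, 39.3% as unequal and 28.2% for the difference of steps to dp12. Without the 3 least correlated arrays there were 2 at V, 3 in the wild-type step to dp12, 2 and 1 over all mutant and wild-type stages, 1 as unequal, 1 for differences of steps and 0 relations with Arntl, where 20.1% of all genes were called at V, 41.2% in the wild-type step to dp12, 9.14% and 39.3% over all stages, 5.32% as unequal and 3.14% for the difference of steps to dp12. With only the groups compared there were 1 at V, 4 and 4 in the steps to dp12, 0 in mutant Lac10 against V, 0 over the mutant stages and 3 for differences of steps, where 4.69% of all genes were called at V, 18.2% and 39.1% in the steps to dp12 and 10.3% for their difference. The housekeeping centring gave 3 in the mutant step to dp12, 0 in mutant Lac10 against V, 4 over the mutant stages and 1 relation, and the array-median centring gave 0 in mutant Lac10 against V. Relations with Arntl numbered 0 by Spearman's rho and 0 without 2 arrays chosen as having doubted labels, mutant dp18 replicate 2 and wild-type Lac10 replicate 1. Other arrays, those of mutant Lac10 among them, also correlated better with another group than with their own and were kept in that setting. Leaving out each array gave 0 to 1 at Lac10 between genotypes, 0 to 1 in the wild-type step to dp12, 0 to 2 in mutant Lac10 against V, 0 to 3 over the mutant stages and 0 to 4 relations. Shares of all genes are not given for those settings. The causes were not tested.

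The wild-type title numbers as a replicate block changed no count of clock genes, with 1 called in mutant Lac10 against V (Cry1, adjusted p = 0.0456), and took Fbxw11 (adjusted p = 0.0522), Sgk1 (0.0515) and Wee1 (0.0581) out of the calls. Mutant titles carry no replicate numbers of this kind. Deviations of same-numbered wild-type arrays from their group means had r over 0.1 in 4 of 18 pairs (r from -0.39 to 0.31). That cut is a description and not a test. Pairs with unlike numbers were not compared, so these values cannot tell whether same-numbered arrays share more than a label. With 3 arrays a group, an SE near 0.30 limits the precision.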
